A study of Homo sapiens with 6 samples.

Results

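Transcripts of 10 genes were followed in the MYCN-amplified human neuroblastoma line SK-N-BE(2). The genes encode the 4 ID proteins (ID1, ID2, ID3, ID4), the inhibitory SMADs (SMAD6, SMAD7), the decoy receptor BAMBI and the TGF-beta ligands (TGFB1, TGFB2, TGFB3). They were taken by symbol from a table of 64252 Ensembl genes, and all 10 were among the 18734 genes that passed the low-count filter. Cells carried a control hairpin RNA (shControl, also labelled shNC), hairpin 1 against BCAT1 (shBCAT1#1) or hairpin 2 against BCAT1 (shBCAT1#2), with 2 RNA-seq libraries in each of the 3 groups. BCAT1 is the cytosolic branched-chain amino acid transaminase, and the series title names stabilization of the N-Myc protein by it. All groups are the same single cell line. The labels give neither the time after transfection nor whether replicates came from different cultures, and p-values therefore cover just the spread among these libraries, which may be technical.

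TGF-beta and BMP ligands bind pairs of type I and type II receptor kinases, which phosphorylate SMAD proteins that then enter the nucleus with SMAD4. The pathway switches itself off in part through its own targets: SMAD6 and SMAD7 compete with the activating SMADs at the receptors, and BAMBI resembles a type I receptor but lacks the kinase. ID1, ID2 and ID3 are well-known targets of BMP signalling. ID proteins have a helix-loop-helix domain without the basic DNA-binding part, and so hold E proteins away from the tissue-specific bHLH factors they pair with. In neuroblastoma, ID2 has long been studied together with MYCN, and TGF-beta ligands are secreted by both tumour and stromal cells.

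Total counts ran from 32333416 to 39321388 per library. BCAT1 checked the labels: it stood at 459 and 475 CPM (counts per 1e6 reads assigned to genes, with TMM scaling) in control cells, 55.8 and 55.3 with hairpin 1, and 116 and 111 with hairpin 2. MYCN stood at 2250 and 2270 CPM in control cells, 1820 and 1830 with hairpin 1, and 1700 and 1820 with hairpin 2. All 11 neuroblastoma markers of the adrenergic type, MYCN among them, passed the filter, with summed levels of 4060 to 4070 CPM in controls, 3540 to 3650 for hairpin 1 and 3020 to 3130 for hairpin 2. MYCN was by far the largest part of that sum, and with hairpin 1 edgeR called 6 of the markers higher and 5 lower, with 1 higher and 9 lower with hairpin 2. Of the leukocyte markers, 4 of 6 were under 1 CPM in every library, as were 4 of 5 endothelial and 2 of 5 epithelial markers, and the summed epithelial level was 9.6 to 11.6 CPM in controls, 11.9 to 13.3 for hairpin 1 and 19.7 to 20.2 for hairpin 2. Summed leukocyte and endothelial levels stayed at or below 5.82 and 7.47 CPM in every library. Fibroblast markers, 6 of 7 of which passed the filter, summed to 622 to 629 CPM in controls, 426 to 440 for hairpin 1 and 619 to 621 for hairpin 2. Of the 7, 2 were under 1 CPM in every library. COL1A2 stayed at or below 0.555 CPM, and FAP stayed at or below 0.317 CPM and was at 0 in all knockdown libraries.

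The regions just upstream of RefSeq transcription starts show which members carry short elements known from this pathway or from MYC proteins. Windows of 250 bases before each RefSeq start (GRCh38.p14, all 10 genes matched) were searched on both strands. SMAD6 held the palindromic SMAD element GTCTAGAC, found in 0.182% of 35116 such windows. BAMBI held the GC-rich SMAD element GGCGCC at 3 places, and 16.4% of windows held at least 1. The BAMBI window has 81.2% GC, the highest of the windows of these genes, and the 16.4% is not matched for GC content. TGFB2 and the first of 2 starts of TGFB3 held the E-box CACGTG, the element bound by MYC and MAX dimers, against 6.34% of windows. It lay 49 and 20 bases before these RefSeq starts. The TGFB2 window ended at 218345335, upstream of the gene start of 218346235 in the GENCODE annotation. The part transcribed from this RefSeq start was not found in that annotation, so the 49 bases are not a distance from the annotated gene start. Other windows reached into the annotated genes. Those of SMAD6 and BAMBI ended at 66702235 and 28677520, past gene starts of 66702228 and 28677342, and the stretches printed below cross these starts. Windows of ID2, ID3 and SMAD7 lay inside the annotated genes. The matches are shown in capitals, 5′ to 3′ on the gene's strand, at chr15:66702188-66702235 (SMAD6, plus strand), chr10:28677276-28677381 (BAMBI, plus), chr1:218345251-218345328 (TGFB2, plus) and chr14:75983012-75983067 (TGFB3, minus).
SMAD6: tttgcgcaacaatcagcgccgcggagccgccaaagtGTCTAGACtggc
BAMBI: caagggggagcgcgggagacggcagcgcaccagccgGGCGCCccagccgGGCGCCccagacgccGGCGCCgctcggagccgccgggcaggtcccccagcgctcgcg
TGFB2: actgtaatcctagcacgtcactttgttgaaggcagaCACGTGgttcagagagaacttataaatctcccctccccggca
TGFB3: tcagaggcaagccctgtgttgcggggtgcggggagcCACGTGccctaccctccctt
None of these 3 elements lay in the windows of ID1, ID2, ID3, ID4, SMAD7 or TGFB1. The shorter GTCT, which the palindrome holds on each strand, was in 77.5% of all windows, and the general E-box CANNTG, which includes CACGTG, in 61.8%. These matches are letters in a window and do not show that a factor binds there.

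Levels between genes were compared as CPM per kilobase of the longest GENCODE 29 transcript. In control cells the order was ID1 (331), ID3 (319), ID2 (82.7), BAMBI (56.1), TGFB1 (25.7), SMAD6 (19.4), TGFB3 (9.92), SMAD7 (7.8), TGFB2 (1.25) and ID4 (0.485). ID1 and ID3 overlapped between the libraries (321 to 340 and 312 to 326), while every other pair of neighbours was separated in both control libraries. The order changed with knockdown at 3 places. ID3 stood above ID1 in all 4 knockdown libraries, at 304 to 339 against 242 to 254 CPM per kilobase. SMAD7 stood above TGFB3 in those libraries, at 7.01 to 10.2 against 4.34 to 6.13. SMAD6 stood above TGFB1 in both hairpin 2 libraries, at 19.8 and 19.7 against 16.6 in each.

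**Figure D1:**
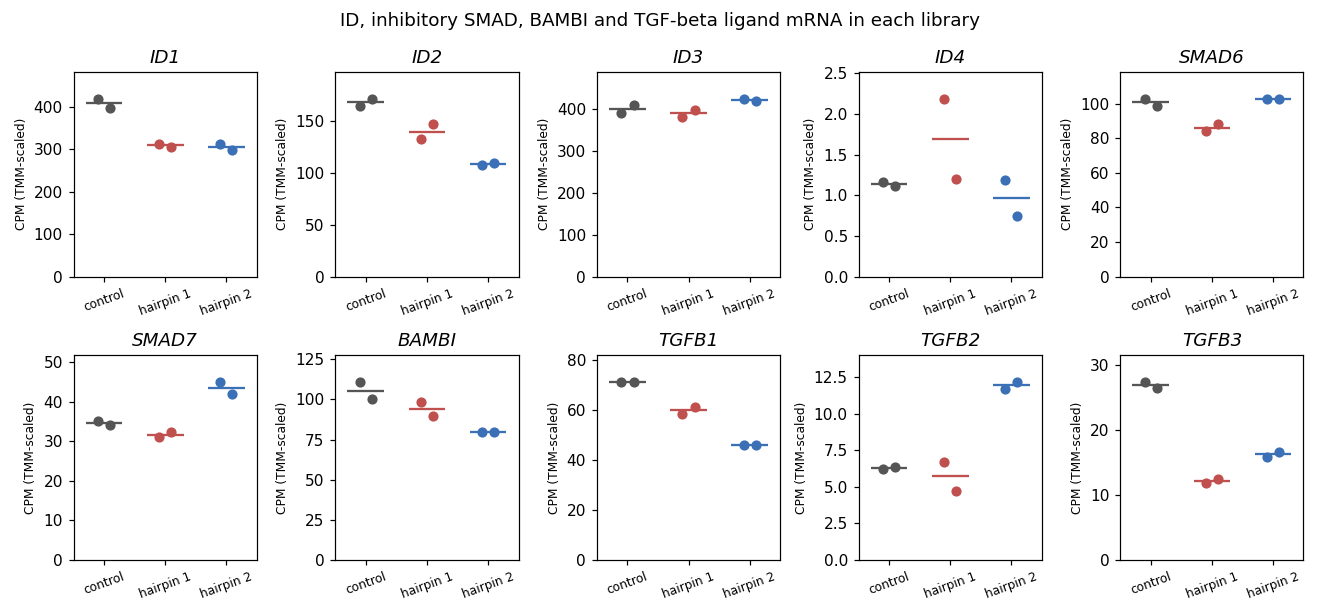
TMM-scaled CPM of each gene in the 6 libraries; points are libraries, lines are means of 2, and each vertical axis starts at 0. ID1, ID2, BAMBI, TGFB1 and TGFB3 lie under both controls in each of the 4 knockdown libraries, while TGFB2 and SMAD7 are highest with hairpin 2.

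Over both hairpins against control, 6 of the 10 genes changed in edgeR at an adjusted p under 0.05, 5 lower and 1 higher. Across all genes tested 50% passed, 23.6% higher and 26.4% lower, so the share among the 10 is close to the background. Their median log2 fold change was −0.2, against −0.01 over all genes. The same 5 genes, ID1, ID2, BAMBI, TGFB1 and TGFB3, lay below both controls in all 4 knockdown libraries, a position that 23.6% of tested genes shared (22% lay above both controls, 45.6% in either direction). When a fold above 1.5 was tested for, TGFB3 alone passed over both hairpins (5.55% of all genes) and with hairpin 1 (9.44%), none with hairpin 2 (7.46%), where 7 passed without that threshold, and TGFB2 between the hairpins (9.47%).

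ID1 and ID2, both dominant negative partners of E proteins, were lower with either hairpin. ID1 (ENSG00000125968, chromosome 20, 31605283 to 31606515, plus strand, hg38) stood at 419 and 396 CPM in control cells, 313 and 306 with hairpin 1, and 313 and 299 with hairpin 2. The knockdown libraries lay together within a narrow band below the controls. Over both hairpins ID1 fell 1.32-fold (a log2 change of −0.41 with SE 0.04 and edgeR adjusted p = 4.8e-05). The difference between hairpins was −0.02 (95% interval −0.12 to 0.09, edgeR adjusted p = 0.81). ID2 (ENSG00000115738, chromosome 2, 8678845 to 8684453, plus strand) went from 165 and 172 CPM to 133 and 147 with hairpin 1 and to 108 and 110 with hairpin 2. Here the 3 groups were ordered without overlap, control above hairpin 1 above hairpin 2. ID2 fell by 0.27 (SE 0.05, edgeR adjusted p = 0.003) with hairpin 1 and by 0.63 (SE 0.05, edgeR adjusted p = 3.3e-05) with hairpin 2 on the log2 scale. Hairpin 2 minus hairpin 1 was −0.36 (SE 0.05, edgeR adjusted p = 0.00073). An antisense gene, ID2-AS1, overlaps 1.72% of ID2's exonic bases.

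ID3, as abundant per length as ID1 in control cells, did not share the fall. ID3 (ENSG00000117318, chromosome 1, 23557918 to 23559794, minus strand) held 390 and 408 CPM in control cells, 380 and 397 with hairpin 1, and 424 and 418 with hairpin 2. Hairpin 1 libraries overlapped the controls and hairpin 2 libraries lay just above them. Neither comparison passed: −0.04 with hairpin 1 (95% interval −0.14 to 0.06, edgeR adjusted p = 0.48) and 0.08 with hairpin 2 (−0.02 to 0.18, edgeR adjusted p = 0.16). ID4 (ENSG00000172201, chromosome 6, 19837386 to 19840684, plus strand), known from neural development, was near the lower limit of detection. Its libraries held 44 and 41 counts in control cells, 85 and 39 with hairpin 1, and 48 and 29 with hairpin 2. With hairpin 1 the interval of its log2 fold change ran from −0.21 to 1.38 and with hairpin 2 from −1.05 to 0.59, and neither passed (edgeR adjusted p = 0.2 and 0.63).

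The ligands went separate ways. TGFB3 (ENSG00000119699, chromosome 14, 75958099 to 75982991, minus strand) showed the largest change of the 10 genes over both hairpins, with control libraries at 27.4 and 26.4 CPM, hairpin 1 libraries at 11.8 and 12.4, and hairpin 2 libraries at 15.9 and 16.6. All 3 groups were apart, with hairpin 1 the lowest. Over both hairpins TGFB3 fell 1.92-fold (a log2 change of −0.94 with SE 0.07 and edgeR adjusted p = 1.3e-05), 2.22-fold with hairpin 1 (edgeR adjusted p = 1.1e-05) and 1.65-fold with hairpin 2 (edgeR adjusted p = 0.00013). Its fall was smaller with hairpin 2 by 0.43 (SE 0.08, edgeR adjusted p = 0.0032). Of 6 tested fibroblast markers, 5 were also lower with hairpin 1, whereas with hairpin 2, where TGFB3 was lower, 2 were lower, 1 was higher and their summed level lay at 619 to 621 CPM against 622 to 629 in controls. After the correction for GC content and transcript length given further on, 4 of these markers were lower with hairpin 2 and 0 higher by edgeR. Their part in the change of TGFB3 was not tested. In bulk libraries fewer cells of a type and less RNA per cell cannot be told apart.

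TGFB1 (ENSG00000105329, chromosome 19, 41301587 to 41353911, minus strand), the most abundant of the 3 TGF-beta ligands, held 71.2 and 71 CPM in control cells, 58.5 and 61.1 with hairpin 1, and 45.9 and 46 with hairpin 2. The groups were apart, and hairpin 2 was the lowest. It fell by 0.25 with hairpin 1 (SE 0.05, edgeR adjusted p = 0.0026) and by 0.63 with hairpin 2 (SE 0.05, edgeR adjusted p = 1.9e-05) on the log2 scale, a difference of −0.38 between hairpins (SE 0.05, edgeR adjusted p = 0.00029). For TGFB1 and ID2 hairpin 2 was thus the lower of the hairpins, and for TGFB3 hairpin 1. TGFB1 shares 6.64% of its exonic bases with HNRNPUL1 on the other strand and TGFB3 3.32% with TGFB3-AS1, and whether counting used strand is not given in the sources used here.

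TGFB2 (ENSG00000092969, chromosome 1, 218346235 to 218444619, plus strand) was raised with hairpin 2 alone. It held 6.24 and 6.35 CPM in control cells, 6.73 and 4.75 with hairpin 1, and 11.7 and 12.2 with hairpin 2. Hairpin 1 libraries spread around the controls, and both hairpin 2 libraries were far above all the others. TGFB2 rose 1.9-fold with hairpin 2 (0.92 in log2, SE 0.16, edgeR adjusted p = 0.0014) and stood at −0.13 with hairpin 1 (95% interval −0.5 to 0.24, edgeR adjusted p = 0.55). The difference between hairpins was itself 1.05 (SE 0.16, edgeR adjusted p = 0.00078). The call over both hairpins (0.4, edgeR adjusted p = 0.043) therefore mixed unlike values, and it was lost without either control replicate (edgeR adjusted p = 0.16 and 0.13), without replicate 1 of hairpin 1 (0.26, edgeR adjusted p = 0.085) and without hairpin 2 replicate 1 or 2 (edgeR adjusted p = 0.085 and 0.098). TGFB2-OT1, on the same strand, covers 26.6% of TGFB2's exonic bases, so part of its reads is uncertain.

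The feedback inhibitors also separated the hairpins. SMAD7 (ENSG00000101665, chromosome 18, 48919853 to 48952052, minus strand), which blocks the receptors of both branches, held 35.1 and 34 CPM in control cells, 31 and 32.3 with hairpin 1, and 45 and 41.8 with hairpin 2. It rose 1.26-fold with hairpin 2 (0.33 in log2, SE 0.06, edgeR adjusted p = 0.003) and stood at −0.12 with hairpin 1 (95% interval −0.28 to 0.03, edgeR adjusted p = 0.15). Hairpin 2 exceeded hairpin 1 by 0.45 (SE 0.07, edgeR adjusted p = 0.00058). SMAD6 (ENSG00000137834, chromosome 15, 66702228 to 66782848, plus strand), which acts mainly on the BMP branch, held 103 and 98.8 CPM in control cells, 84 and 88.3 with hairpin 1, and 103 in both hairpin 2 libraries. The hairpin 1 libraries were the low ones. SMAD6 fell by 0.23 with hairpin 1 (SE 0.05, edgeR adjusted p = 0.0028), stood at 0.02 with hairpin 2 (95% interval −0.08 to 0.12, edgeR adjusted p = 0.71), and differed between hairpins by 0.25 (SE 0.05, edgeR adjusted p = 0.0019).

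BAMBI (ENSG00000095739, chromosome 10, 28677342 to 28682939, plus strand) had hairpin 2 as its lowest group, whereas for both inhibitory SMADs hairpin 1 was the lowest. Its libraries held 111 and 100 CPM in control cells, 98.4 and 89.9 with hairpin 1, and 79.9 and 79.5 with hairpin 2. BAMBI fell 1.33-fold with hairpin 2 (log2 fold change −0.41, SE 0.06, edgeR adjusted p = 0.00068), while with hairpin 1 it stood at −0.17 (SE 0.06, edgeR adjusted p = 0.051). The difference of −0.24 between hairpins (edgeR adjusted p = 0.012) lost its call without hairpin 1 replicate 1 (−0.17, edgeR adjusted p = 0.09) and without hairpin 2 replicate 1 or 2 (−0.25 and −0.23, edgeR adjusted p = 0.06 and 0.07). The call with hairpin 1 was gained without control replicate 2 or without hairpin 1 replicate 1 (−0.24 in both, edgeR adjusted p = 0.018 and 0.032).

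For each hairpin taken separately, 5 of the 10 genes were called with hairpin 1 (0 higher, 5 lower), where 49.1% of all genes passed (24.2% higher, 24.9% lower). With hairpin 2 there were 7 (2 higher, 5 lower) against 49.3% (23.9% higher, 25.4% lower). Between the hairpins there were 7 (4 higher and 3 lower with hairpin 2) against 46.2% (22.9% higher, 23.3% lower). ID1, ID2, TGFB1 and TGFB3 passed downwards with each hairpin. Both hairpins share the control libraries, so these calls are not independent. ID1, ID3 and ID4 did not pass between the hairpins. For ID3 the difference of 0.12 was close to the threshold (edgeR adjusted p = 0.051) and passed under 10 of 17 alternatives, among them DESeq2 (adjusted p = 0.016), limma-voom (adjusted p = 0.035) and edgeR without control replicate 2 or hairpin 1 replicate 2 (adjusted p = 0.047 and 0.05). For ID4 it was −0.82 (edgeR adjusted p = 0.09) and passed without hairpin 1 replicate 2 (−1.18, edgeR adjusted p = 0.028).

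**Figure D2:**
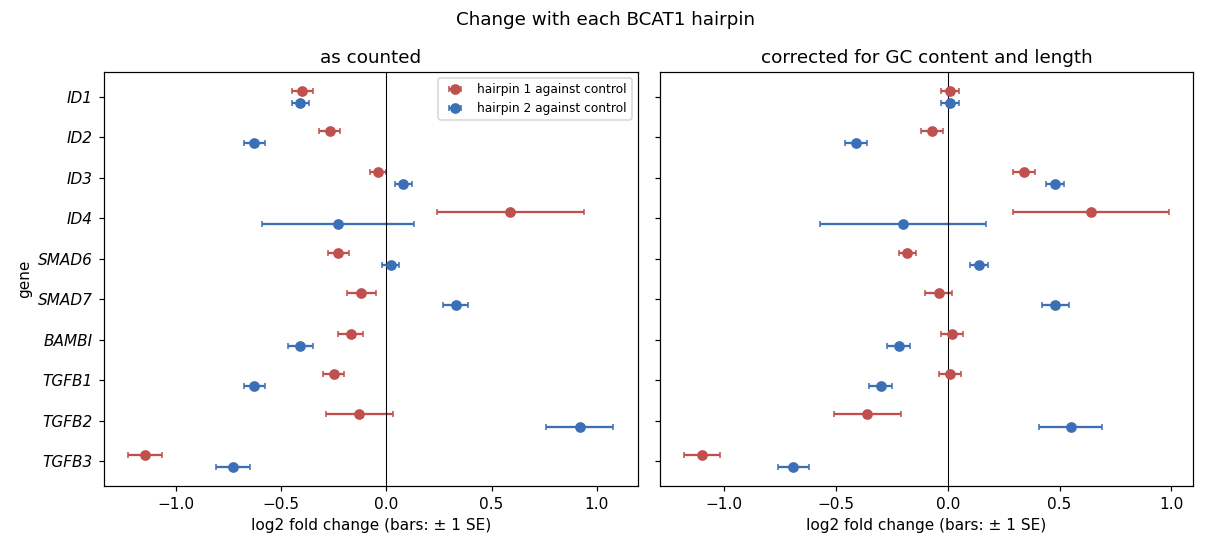
Log2 fold change with hairpin 1 (red) and hairpin 2 (blue) against control for each gene, bars showing 1 SE, as counted (left) and after a per-library correction for GC content and transcript length (right). TGFB3 stays low on both sides, ID1 moves from −0.4 and −0.41 to 0.01 with each hairpin, and ID3 moves above 0.

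Base composition and transcript length moved with these changes. Across 13907 protein-coding genes (a description, since genes do not replicate a condition), log2 fold change over both hairpins had a Spearman correlation of −0.44 with GC content and 0.43 with length of the longest transcript. Genes with 55 to 60% GC had a median log2 fold change of −0.22, and those under 40% GC a median of 0.28. ID1 and ID3 are GC-rich and short: their transcripts have 58.6% and 57.2% GC, and only 4.9% and 5.07% of those genes are shorter. TGFB1 has 63.5% GC, more than 93.3% of the genes, TGFB2 has 38.9%, and TGFB3 has 48.9%, beside a median of 48.8% over the genes. The part of this trend in each gene's change was not tested gene by gene. The plot of change against GC content shows TGFB1 and ID1 inside the middle range of genes like them in GC, and TGFB3 far below its own. ID2 (−0.45) lay below its range, whose lower edge was −0.36 for genes with 50 to 55% GC. SMAD7 (0.1) lay above its range, whose upper edge was 0.05 for genes with 55 to 60% GC.

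**Figure D3:**
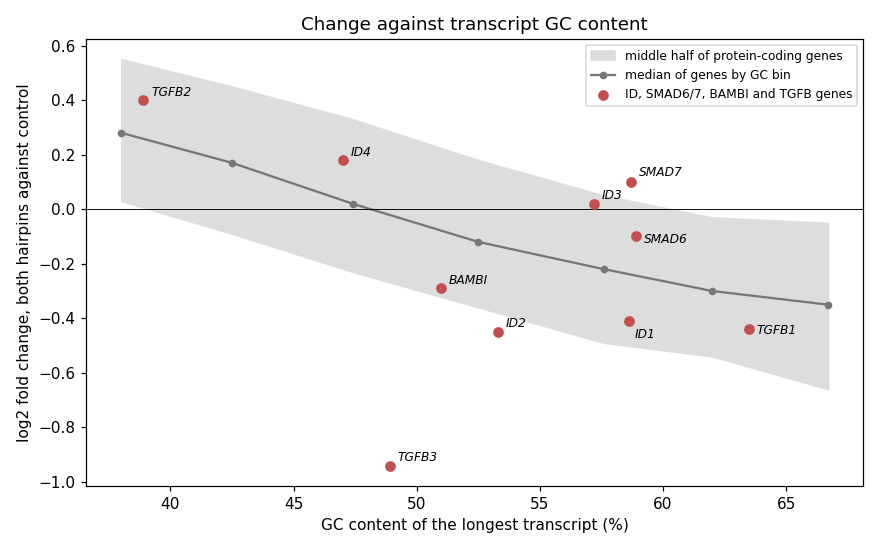
Log2 fold change over both hairpins against GC content of the longest transcript; the line joins the medians of protein-coding genes in 7 bins of GC content, the grey band spans their middle 50%, and red points are the 10 genes. TGFB3 (−0.94 at 48.9% GC) and ID2 (−0.45 at 53.3%) lie below the band, and SMAD7 (0.1 at 58.7%) lies above it. ID1 and TGFB1 lie within the band, and the medians run from 0.28 to −0.35.

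When each library was corrected for GC content and length, the fall of ID1 was gone (0.01, SE 0.03, edgeR adjusted p = 0.83) and ID3 was called higher (0.41, SE 0.04, edgeR adjusted p = 1.4e-05). With GC content alone corrected, ID1 kept a smaller fall of −0.18 (edgeR adjusted p = 0.00091) and ID3 a rise of 0.21 (edgeR adjusted p = 0.00074). ID3, close to ID1 in GC content, length and control level, was thus above it in log2 fold change as counted (0.02 against −0.41) and after either correction; the difference between the 2 genes was not itself tested. With GC content alone corrected, SMAD6 turned to 0.12 over both hairpins (edgeR adjusted p = 0.0071). With length corrected too it stood at −0.02 (edgeR adjusted p = 0.59), an average of opposite calls. These were −0.18 with hairpin 1 and 0.14 with hairpin 2 (edgeR adjusted p = 0.0019 and 0.0095). SMAD7 was then called higher over both hairpins (0.22, edgeR adjusted p = 0.0055) and with hairpin 2 (0.48, edgeR adjusted p = 1e-04). With hairpin 1 it did not pass (−0.04, edgeR adjusted p = 0.65). TGFB3 kept its fall at −0.9 (edgeR adjusted p = 1.7e-06), while ID2 and TGFB1 stayed called with smaller values, at −0.24 (edgeR adjusted p = 0.0012) and −0.15 (edgeR adjusted p = 0.018). For both genes hairpin 2 alone passed: ID2 was at −0.41 with hairpin 2 and −0.07 with hairpin 1 (edgeR adjusted p = 0.00011 and 0.28). TGFB1 was at −0.3 with hairpin 2 and 0.01 with hairpin 1 (edgeR adjusted p = 0.00072 and 0.89). Over both hairpins the calls of BAMBI (−0.1, edgeR adjusted p = 0.094) and TGFB2 (0.09, edgeR adjusted p = 0.57) were lost. Against control BAMBI was called with hairpin 2 and not with hairpin 1 (−0.22, edgeR adjusted p = 0.0068), TGFB2 likewise (0.55, edgeR adjusted p = 0.0081). In all, 5 of the 10 genes passed over both hairpins after correction, 2 higher and 3 lower, against 52.2% of protein-coding genes (22% higher, 30.1% lower). With hairpin 1 there were 3 (1 higher, 2 lower) against 56.4% (28% higher, 28.3% lower), and with hairpin 2 there were 8 (4 higher, 4 lower) against 51.5% (20.9% higher, 30.6% lower). Between the hairpins, all 7 genes called there as counted were called in the same direction after it, from −0.34 for ID2 to 0.91 for TGFB2, and ID3 joined them at 0.14 (edgeR adjusted p = 0.022), against 60.1% of protein-coding genes (26.6% higher, 33.6% lower).

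The genes whose profile over the 6 libraries came closest to these were named by the root mean square difference of log2 CPM, each taken from its own control mean, among 11123 genes with a mean of at least 5 CPM. COPE, a coatomer subunit (0.017), POLR2G, a subunit of RNA polymerase II (0.02), and RPL8, a ribosomal protein (0.021), lay closest to ID1. For ID2 they were the ubiquitin-conjugating enzyme CDC34 (0.033), TGFB1 itself (0.033) and the chaperone CALR (0.034), which went from 1610 CPM to 1300 and 1030. NCBP2 (0.021), ARGLU1 (0.025) and TMEM199 (0.025) lay closest to ID3, and MRAP2 (0.028), RSAD1 (0.032) and SDC1 (0.032) to TGFB1.

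The rest of the pathway was described from lists of ligands, receptors, SMADs, antagonists, regulators and response genes. Counting each gene once, 54 of 91 tested genes passed over both hairpins in edgeR, 23 higher and 31 lower, beside 50% of all genes. After correction for GC content and length 17 were higher and 39 lower, beside 22% and 30.1% of protein-coding genes. Counts over both hairpins below can be read against these shares after correction, and as counted against 23.6% higher and 26.4% lower. The medians below can be read against −0.01 over all genes.

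Receptor-regulated and common SMADs, the signal carriers, passed upwards in 4 of 6 cases and downwards in 1 (median 0.37). SMAD4, the common partner, had 49.8 ± 0.72 CPM with the control hairpin (SD, n = 2), 68.1 ± 1.5 with hairpin 1 and 71.2 ± 2 with hairpin 2. It rose by 0.48 (SE 0.04, edgeR adjusted p = 3.3e-05). The BMP-branch SMADs SMAD5, SMAD1 and SMAD9 rose by 0.57, 0.41 and 0.33 on the log2 scale. SMAD2, of the TGF-beta branch, changed by −0.27 (SE 0.06, edgeR adjusted p = 0.0046), with −0.45 for hairpin 1 and −0.09 for hairpin 2, and its partner SMAD3 stood at 0.02 (edgeR adjusted p = 0.74). After correction the rises of SMAD4 (0.06) and SMAD9 (0.06) did not pass, and those of SMAD5 (0.14) and SMAD1 (0.23) did. SMAD2 was then at −0.79 (SE 0.11), and at −0.67 with hairpin 2. Its longest transcript has 34526 bases, far above the median of 3685, which leaves its length-corrected values uncertain.

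Receptors passed upwards in 9 of 15 cases and downwards in 3 (median 0.25), but after correction 4 were higher and 5 lower. TGFBR2, the type II receptor of TGF-beta ligands, stood at 37.6 CPM in control cells, 42.3 with hairpin 1 and 59 with hairpin 2 (over both 0.41, SE 0.05, edgeR adjusted p = 0.00025; after correction 0.29). BMPR2, the BMP type II receptor, stood at 92.5 CPM in control cells, 86.5 with hairpin 1 and 182 with hairpin 2. Its call over both hairpins (0.44) was lost after correction (−0.1, edgeR adjusted p = 0.07). That value averaged opposite calls: BMPR2 stayed higher with hairpin 2 (0.34) and was lower with hairpin 1 (−0.54, edgeR adjusted p = 6.2e-06). AMHR2, the receptor of anti-Mullerian hormone, changed by −0.91 (SE 0.1, edgeR adjusted p = 0.00012).

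Of the other ligands, 12 of 20 passed the filter, with 1 called higher and 3 lower (median 0.12). BMP6, a BMP ligand, stood at 19.7 and 18.2 CPM in control cells, 4.62 and 5.36 with hairpin 1, and 13.9 and 14 with hairpin 2 (−1.19, SE 0.09, edgeR adjusted p = 1.4e-05). INHBE, an inhibin subunit, was high with hairpin 1 alone, at 17.5 and 16.8 CPM against 2.33 and 1.78 in control cells and 2.53 and 2.11 with hairpin 2. BMP1, a procollagen protease despite its name, changed by −0.42 (edgeR adjusted p = 0.00011).

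Extracellular antagonists and latency proteins passed downwards in 9 of 19 cases and upwards in 1 (median −0.14), and 12 of 19 passed between the hairpins, beside 46.2% of all genes. With hairpin 1, 9 were lower and 2 higher (24.9% and 24.2% of all genes), and with hairpin 2, 7 and 4 (25.4% and 23.9%). Among the 9 lower over both, THBS1, which is not an antagonist, had opposite calls (−1.39 with hairpin 1, 0.91 with hairpin 2). So did FSTL1 (−1.33 and 0.13), which after correction was lower with each (−1.55 and −0.19). LTBP3, which binds latent TGF-beta, stood at 324 CPM in control cells, 160 with hairpin 1 and 261 with hairpin 2. GREM1, a secreted BMP antagonist, went from 104 CPM to 45.5 and 93. FSTL1, a follistatin-like secreted protein, stood at 1070 CPM in control cells, 428 with hairpin 1 and 1170 with hairpin 2. Hairpin 2 exceeded hairpin 1 by 0.71, 1.03 and 1.46 for these genes (edgeR adjusted p = 4.2e-06, 9.3e-07 and 2.4e-07). Of 6 tested fibroblast markers, 4 were also higher with hairpin 2 than with hairpin 1 and the others, DCN and COL1A2, did not pass. Their part in these differences was not tested.

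Intracellular regulators, listed together as negative ones, had 4 called higher and 2 lower of 13 (median 0.11, and after correction 2 higher and 6 lower). The list also holds USP15 and ZFYVE9, which are not negative regulators, so these counts do not describe inhibitors alone. USP15 was called higher as counted (0.24) and lower after correction (−0.36). ZFYVE9 did not pass as counted (−0.03) and was called lower after correction (−0.23). SKI, a SMAD corepressor, rose by 0.51 (SE 0.04, edgeR adjusted p = 1.9e-05) and by 0.59 after correction. WWP1 and SMURF2, ubiquitin ligases, rose by 0.5 and 0.44, and for SMURF2 the rise did not pass after correction (0.09, edgeR adjusted p = 0.29).

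Of the response genes, 10 of 20 were lower and 3 higher (median −0.16; 11 and 4 after correction). The AP-1 member JUNB stood at 317 and 305 CPM in control cells, 232 and 244 with hairpin 1, and 189 and 192 with hairpin 2 (−0.54, SE 0.04, edgeR adjusted p = 9.5e-06; after correction −0.14). MSX1, a homeobox target of BMP signalling, changed by −0.8 (SE 0.07, edgeR adjusted p = 2.8e-05), and LTBP2 by −1.3 (SE 0.1, edgeR adjusted p = 1.9e-05).

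Among bHLH factors and E proteins, the partners that ID proteins bind or displace, 5 of 10 tested genes were lower and 1 higher (median −0.16). The E protein TCF3 fell with both hairpins, from 228 CPM to 178 and 166 (−0.41, SE 0.04, edgeR adjusted p = 5.4e-05; after correction −0.26). TCF4, another E protein, rose from 153 CPM to 166 and 218 (0.31, edgeR adjusted p = 0.00015), a direction that turned after correction (−0.14, edgeR adjusted p = 0.0036). HES6, an inhibitory partner of HES1, changed by −0.69 (edgeR adjusted p = 0.00038; after correction −0.24).

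**Figure D4:**
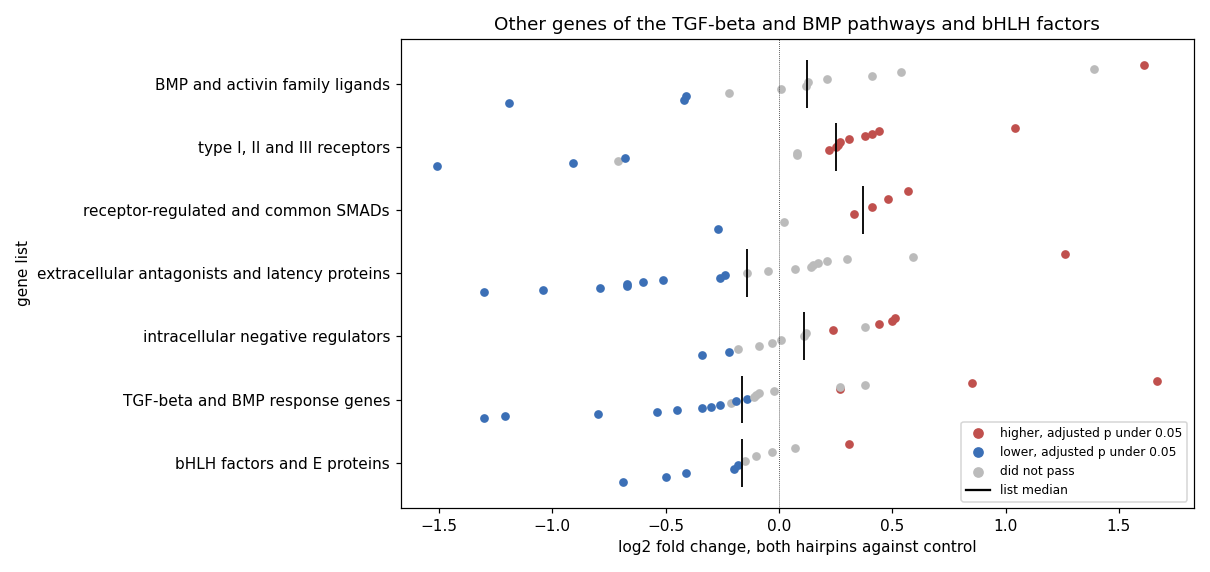
Log2 fold change over both hairpins for tested genes of 7 lists; each point is a gene (red higher, blue lower, grey did not pass), spread vertically for legibility, and black lines are list medians. As counted, SMADs and receptors lie mostly to the right (medians 0.37 and 0.25), and response genes mostly to the left (−0.16). After correction for GC content and length, which is not plotted, these medians were 0.06, −0.1 and −0.13.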

How the data were processed

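Counts for each Ensembl gene were used as deposited. The authors made them with HISAT2 2.2.0 and StringTie on hg38, per the submitters' processing notes. The sources used here do not give the StringTie version, annotation, counting options or strand setting. Columns were matched to sample titles. Symbols came from a table holding 56105 of the 64252 IDs, and coordinates, GC content and lengths from GENCODE 29 (hg38). Genes were filtered with filterByExpr (minimum count 10), scaled with TMM and tested with edgeR 4.0.16 (quasi-likelihood, R 4.3.3) with a term per group over all 6 libraries, leaving 3 residual degrees of freedom; each two-sided p was adjusted by Benjamini-Hochberg across the 18734 genes. The standard error is the fold change divided by the root of F. The GC and length correction used a per-library loess (span 0.3) as an offset and protein-coding genes only. The script was tested on simulated data. Members, lists and tests were chosen with earlier results of these data known. Named beside the 10 genes were BCAT1, MYCN, the listed SMADs, the 3 smallest p of each other list and the 3 nearest profiles of ID1, ID2, ID3 and TGFB1. Replicates differed by more than the sampling noise of plain read tallies (mean chi-square per gene 5.87 to 8.63, where such noise gives about 1). Whether the counts made with StringTie are plain tallies is not given, so that baseline may not hold for them. Alternatives included DESeq2 1.42.0, limma-voom (limma 3.58.1), RLE, other filters, a replicate term, only the groups compared, libraries left out and a fold threshold of 1.5.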

Additional observations from a re-analysis of the deposited data

Results flagged for a closer look

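For 7 of the 10 genes the effect of hairpin 2 differed from that of hairpin 1 by a direct test of the difference (edgeR, adjusted over all genes), which 46.2% of all genes also passed. On the log2 scale, hairpin 2 minus hairpin 1, the difference was 1.05 for TGFB2, 0.45 for SMAD7, 0.43 for TGFB3 and 0.25 for SMAD6. It was −0.38 for TGFB1, −0.36 for ID2 and −0.24 for BAMBI. Both libraries of a hairpin lay on the same side of both libraries of the other for each of these genes.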

How the results depend on the processing

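With a fold threshold of 1.5, calls among the 10 genes dropped to 1 over both hairpins, 1 with hairpin 1, 0 with hairpin 2 (7 by edgeR without that threshold) and 1 between hairpins; over all genes they dropped to 1039, 1769, 1397 and 1774, and pathway genes to 9. Corrected for GC content and length, with or without a replicate block, 3 of the 10 genes were called with hairpin 1. Under that correction the value turned for ID1 (0.01 over both, with hairpin 1 and with hairpin 2), ID3 with hairpin 1 (0.34) and TGFB1 with hairpin 1 (0.01), also with the replicate block, and among values without a call for BAMBI with hairpin 1 (0.02). With GC content alone corrected, chosen after seeing the data, the value turned for SMAD6 over both hairpins (0.12), ID3 with hairpin 1 (0.12) and TGFB1 with hairpin 1 (0, edgeR adjusted p = 0.99). Apart from these corrections and the fold threshold, 11 recomputed values of single genes lost a call, 11 gained one and 498 did neither. Values that changed sign there had no call before or after, such as ID4 over both hairpins without hairpin 1 replicate 1 (−0.07) and TGFB2 with hairpin 1 without hairpin 1 replicate 2 (0.1). TGFB2 over both hairpins lost its call under each of these corrections (0.09 and 0.12), when low counts were left in (0.39), under DESeq2 (0.41) and with the replicate block (0.39). Replicate numbers shared no deviation (correlations −0.04 to 0 across genes), and the replicate block left 5 of the 10 genes called over both hairpins, 6 with hairpin 1, where BAMBI was gained, 7 with hairpin 2 and 7 between hairpins. Low counts limit ID4 in every library.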

Other observations

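Values of 3 other pathway genes, chosen after they were seen, are given here. CCN2, a matricellular target of TGF-beta and YAP, stood at 3.76 and 4 CPM in control cells, 1.65 and 1.63 with hairpin 1, and 28.1 and 31.2 with hairpin 2, the group in which TGFB2 and SMAD7 were high. TGFBI, a secreted matrix protein named for its induction by TGF-beta, stood at 13.3 and 13.6 CPM in control cells, 5 and 6.22 with hairpin 1, and 6.09 and 5.91 with hairpin 2, and the difference between hairpins did not pass in edgeR (0.1, adjusted p = 0.57). ACVRL1, a type I receptor, stood at 15 CPM in both control libraries, 2.89 and 5.02 with hairpin 1, and 5.47 and 8.53 with hairpin 2.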
